A study of Homo sapiens with 24 samples.

Results

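H3K4me1 was compared between ZNF436 knockdown and control cardiomyocytes in 6 CUT&Tag libraries, 3 of each group, chosen because their titles name this mark. They are 6 of the 24 libraries of the series, in which H3K4me3, H3K27ac and H3K9me3 were measured in the same groups. In CUT&Tag an antibody tethers a transposase that cuts and tags the DNA around marked nucleosomes. Both groups came from H9, a line of human embryonic stem cells, and were differentiated with a commercial ventricular cardiomyocyte kit to day 15, when the labels call them ventricular-like cardiomyocytes. The knockdown group had reduced ZNF436, which encodes a zinc finger protein, and the control group carries no further description. The sources used here do not give how the knockdown or its control was made, or whether replicates came from separate differentiations. The p-values below therefore speak of the variation among these 6 libraries, part of which may be technical. No gene annotation of the build of the files (hg19) was used, so regions are named by position, and neither the cardiomyocyte label nor the level of ZNF436 was checked against genes.

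H3K4me1 is one methyl group on lysine 4 of histone H3. The MLL3 and MLL4 methyltransferases place it at enhancers, where it can be present before activity and where H3K27ac is added when the enhancer is active. It also lies on both sides of active promoters, whose centre carries H3K4me3 instead. H3K9me3, by contrast, marks silenced heterochromatin, including many repeats, to which KRAB zinc finger proteins recruit the enzymes that deposit it.

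Reads had been counted over 153244 regions with a median width of 708 bp, the same list for all 4 marks. The H3K4me1 libraries held between 3920283 and 4936265 counts, and 144761 regions had at least 1 count. Libraries of one group differed from each other. Over 50 kb bins, in which the counts of all regions with their midpoint in the bin were summed, the SD of the log2 CPM difference (CPM, counts scaled to a common library total) between a pair of libraries was 0.52 to 0.58 among the 3 knockdown libraries. Among the 3 control libraries it was 0.68 to 0.87. Control 3 lay nearer to the knockdown libraries (0.59 to 0.64) than to the other controls (0.68 and 0.87), while controls 1 and 2 lay further from them (0.71 to 0.85). Principal components were taken over the 6378 bins with the highest mean level. On the first, which held 52.7% of the variance of these bins, controls 1 and 2 scored -13.0 and -24.9 and control 3 scored 8.65. The knockdown libraries scored 12.2, 6.35 and 10.6.

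With all 6 libraries, no single region passed the test. Of 85815 regions tested, edgeR's quasi-likelihood test called 0 at an adjusted p under 0.05 (percent called 0), and the lowest adjusted p was 0.0649. Without adjustment, 9003 regions (10.5%) had p under 0.05, of which 4215 were higher (4.91%) and 4788 lower (5.58%) in knockdown cells. DESeq2 called 88 (0.103%), 68 higher and 20 lower, and limma-voom 67 (0.0781%), 58 higher and 9 lower. In a typical region the test had little precision. The median region tested had a mean of 30.2 counts per library, and the median SE of its log2 fold change (knockdown over control) was 0.44. Only 27.6% of regions had a 95% interval that lay wholly between -1 and 1, so for the others the interval at this depth reached a change of at least 2-fold.

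Summing over larger windows narrowed the intervals step by step. The median half-width of the 95% interval fell from 0.90 for regions to 0.68 for 50 kb bins, 0.48 for 200 kb bins and 0.25 for bins of 1000 kb, where the median window held 1031 counts. The share of windows with the interval wholly between -1 and 1 was 49.3% (15707 of 31889) at 50 kb and 94.3% (2723 of 2888) at 1000 kb. For 2723 windows of 1000 kb, 2-fold changes in either direction thus lay outside the interval. The central 90% of log2 fold changes at that size lay between -0.28 and 0.54.

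**Figure D1:**
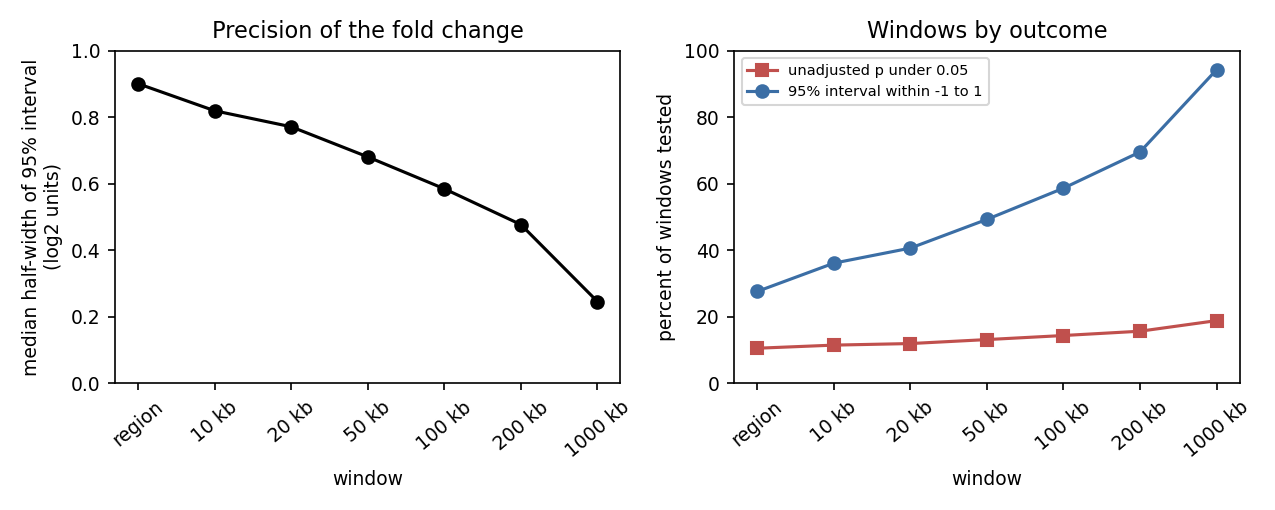
Left, the median half-width of the 95% interval of the H3K4me1 log2 fold change (y, log2 units) for single regions and for bins of 10 to 1000 kb (x). Right, the percent of windows tested whose interval lies between -1 and 1 (circles) or whose unadjusted p is under 0.05 (squares). The half-width falls from 0.90 to 0.25, the first share rises from 27.6% to 94.3% and the second from 10.5% to 18.8%.

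The 50 kb bins gave the same count of calls as the regions. Of 44729 bins, 31889 were tested and edgeR called 0 (percent called 0), the lowest adjusted p being 0.0629. Without adjustment, 4176 bins (13.1%) had p under 0.05, 1889 higher (5.92%) and 2287 lower (7.17%). DESeq2 gave an adjusted p to 23851 bins and called 111 (0.465%), 61 higher and 50 lower, while limma-voom called 1 (0.00314%). The count depended on which control was present. Without control 3, edgeR called 2197 bins (6.69%), 1034 higher and 1163 lower, and without control 2 it called 258 (0.791%), 100 higher and 158 lower. Leaving out control 1 or any one of the knockdown libraries gave 0. The 111 bins of DESeq2 were all among the 2197 called by edgeR without control 3, and 75 of them were among the 258 called without control 2. Regions behaved alike, with 2443 called without control 3 (2.71%; 1453 higher and 990 lower), 243 without control 2 (0.273%) and 0 without any one of the others.

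**Figure D2:**
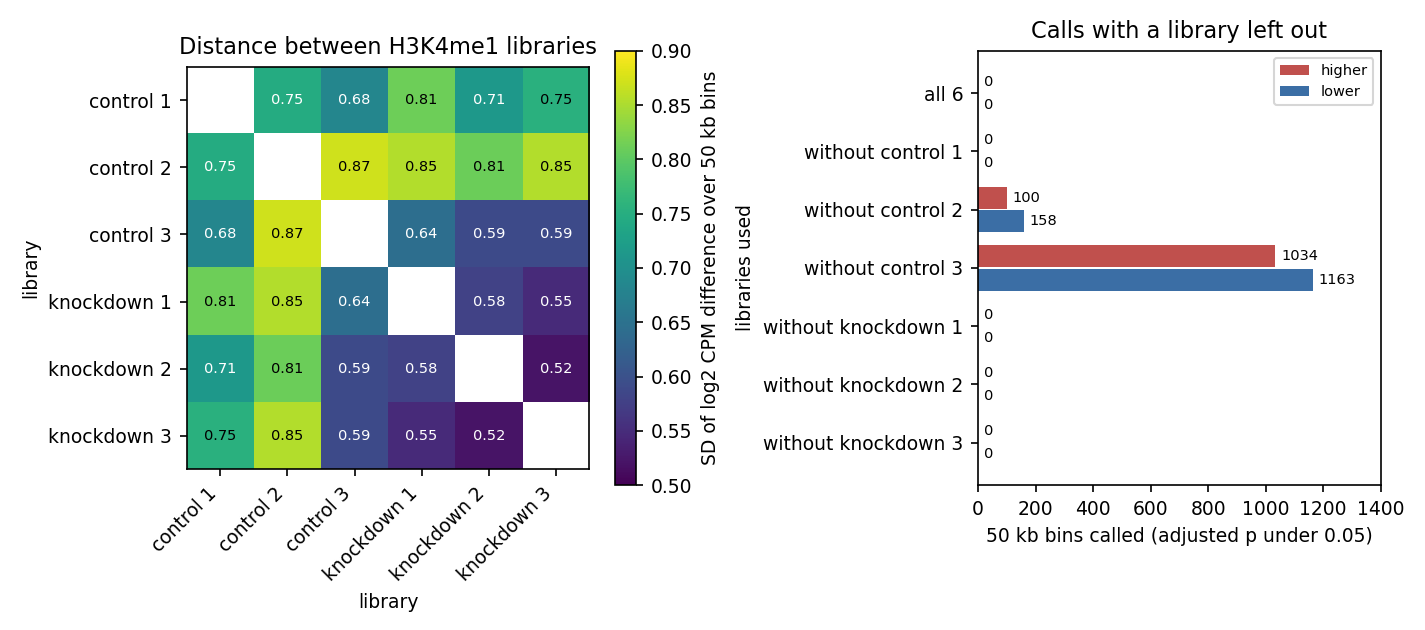
Left, the SD over 50 kb bins of the log2 CPM difference for each pair of the 6 H3K4me1 libraries, printed in each square. Right, the number of 50 kb bins called higher (red) or lower (blue) by edgeR with all 6 libraries and with each left out. Squares among the knockdown libraries read 0.52 to 0.58, and the 2 non-zero pairs of bars are those without control 2 (100 and 158) and without control 3 (1034 and 1163).

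The bin with the smallest p lay on the short arm of chromosome 8, at positions 12400001 to 12450000. Its H3K4me1 was 73.8, 111 and 137 CPM in controls 1 to 3 and 231, 250.5 and 246 CPM in knockdown 1 to 3 (107 ± 31.6 against 242 ± 10.1 CPM, SD, n = 3). CPM of single bins and single regions is over TMM-scaled library sizes. CPM of flanks and of sums over lists of regions is over library totals. Each knockdown library stood above each control. The log2 fold change was 1.18 (SE 0.18, 95% interval 0.81 to 1.55), and the adjusted p of 0.0629 in edgeR missed the threshold. The signal was spread over the bin: it held 13 regions, the largest of which gave 29.6% of the counts, and each of the 9 with enough counts for a test was higher at an unadjusted p under 0.05. Among the 4 too low to test, 1 had fewer counts in knockdown cells. This bin and the other bins singled out for their p were chosen on the sum of such counts. The direction and unadjusted p of their regions are thus partly set by that choice. None of the 13 was promoter-like (among the 20% of regions densest in H3K4me3), and 6 were acetylated distal regions (among the 20% densest in H3K27ac without H3K4me3). H3K27ac in this bin was 137 ± 68.9 CPM in the control and 317 ± 22.4 CPM in the knockdown group (log2 fold change 1.21, edgeR adjusted p = 0.0648), and H3K9me3 was 370 ± 44.1 and 243 ± 36.0 CPM (log2 fold change -0.60, edgeR adjusted p = 0.105). A few kb beyond the bin, at positions 12457691 to 12459460, H3K4me3 rose with a log2 fold change of 0.96 (adjusted p = 0.00308, edgeR), and H3K4me1 counts there were 24, 10 and 30 in control and 57, 38 and 41 in knockdown libraries (log2 fold change 1.05, edgeR adjusted p = 0.395).

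That locus passed at 20 kb and 100 kb, while bins of 10 kb, 200 kb and 1000 kb and 50 kb bins shifted by 25 kb gave no call there. The 20 kb bin at 12400001 to 12420000 had 34, 64 and 43 counts in control and 165, 146 and 212 in knockdown libraries (log2 fold change 1.81, SE 0.28, edgeR adjusted p = 0.0488). The 100 kb bin at 12400001 to 12500000 had 394, 524 and 620 against 1055, 1210 and 1386 counts (log2 fold change 1.15, SE 0.17, edgeR adjusted p = 0.0462). It was the 1 call at 100 kb among 21238 bins (0.00471%), and it was 1 of the 2 calls at 20 kb among 47767 (0.00419%). Within it, the region at 12402662 to 12405534 had one of the 5 smallest p among higher regions, with 9, 17 and 12 counts in control and 77, 38 and 91 in knockdown libraries (log2 fold change 2.37, SE 0.43, edgeR adjusted p = 0.0649). The neighbouring region at 12406802 to 12418999, rich in H3K9me3, had 25, 35 and 23 against 65, 62 and 99 H3K4me1 counts.

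A narrower locus on chromosome 19 (16170001 to 16180000) passed at 10 kb, the 1 call among 60071 bins (0.00166%), and again at 20 kb. It had 11, 17 and 7 H3K4me1 counts in control and 76, 84 and 125 in knockdown libraries (log2 fold change 2.94, SE 0.39, edgeR adjusted p = 0.00663). All 4 regions with their midpoint in the bin were higher. One of them, 318 bp wide in the file's list at 16177443 to 16177760, had 0 counts in each control and 13, 23 and 16 in the knockdown libraries, which is at least 17.3-fold higher per total count when 3 counts over the group are taken as the floor. Beside it, the promoter-like region at 16178194 to 16178988 had 2, 10 and 2 against 24, 30 and 39 H3K4me1 counts. H3K4me3 there summed to 26 counts over the control and 68 over the knockdown libraries (log2 fold change 1.44, edgeR adjusted p = 0.338), and H3K27ac to 15 and 36. In the 50 kb bin around the locus, which holds 9 further regions, the counts were 161, 151 and 105 against 190, 196 and 292 (log2 fold change 0.62, 95% interval 0.17 to 1.06, edgeR adjusted p = 0.266).

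Of the single regions named for the smallest p, others lay outside these loci. On chromosome 3 (1345548 to 1345929) there were 1, 2 and 2 counts in control and 46, 24 and 23 in knockdown libraries (log2 fold change 4.11, SE 0.76, edgeR adjusted p = 0.0649). A far deeper region on chromosome 2 (91759543 to 91780636), with 550 ± 51.6 CPM of H3K9me3 in the control group, had 156, 234 and 217 against 440, 440 and 401 H3K4me1 counts (log2 fold change 1.04, SE 0.19, edgeR adjusted p = 0.0649). Control 1 was the lowest library there, and without it the log2 fold change was 0.83. Lower H3K4me1 was found on chromosome 4 (8504240 to 8505277), with 64, 70 and 47 against 12, 18 and 13 counts (log2 fold change -2.10, SE 0.41, edgeR adjusted p = 0.0848). On chromosome 8 (49437797 to 49439237) the knockdown libraries were nearly alike, with 173, 126 and 127 against 59, 60 and 70 counts (log2 fold change -1.21, SE 0.25, edgeR adjusted p = 0.0953). On chromosome 12 (48373251 to 48374344) control 2 stood apart, with 29, 87 and 19 against 2, 7 and 10 counts (log2 fold change -2.87, SE 0.59, edgeR adjusted p = 0.0953). None of these passed the test, and the naming rule took them by smallest p from all 85815 regions tested. Their groups did not overlap, which held for 13371 of the regions tested (15.6%).

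The other 4 named bins with higher H3K4me1 were far weaker in level. The bin on chromosome 14 (29650001 to 29700000) had 7.62, 6.97 and 10.6 CPM in control and 22.8, 34.4 and 30.3 CPM in knockdown libraries (log2 fold change 1.80, SE 0.30, edgeR adjusted p = 0.0773). On chromosome 5 (44500001 to 44550000) the values were 16.8, 21.4 and 25.01 against 58.4, 55.4 and 47.2 CPM (log2 fold change 1.35, SE 0.23, edgeR adjusted p = 0.0773). Neither group of values overlapped the other in these bins, and in each all regions tested were higher (4 of 4 and 5 of 5, out of 5 and 6 regions). The bin on chromosome 20 (16650001 to 16700000) is a single region of 4.93, 6.97 and 6.57 against 24.6, 20.05 and 23.7 CPM (log2 fold change 1.88, edgeR adjusted p = 0.0773). A second bin on chromosome 5 (87350001 to 87400000) had 2.24, 4.33 and 5.30 against 13.8, 21.0 and 19.3 CPM (log2 fold change 2.19, edgeR adjusted p = 0.0868). H3K27ac was 17.04 ± 8.71 and 39.3 ± 8.33 CPM in the first of the chromosome 5 bins (log2 fold change 1.21, edgeR adjusted p = 0.158), but 4.12 ± 0.10 and 3.96 ± 1.18 CPM in the second (log2 fold change -0.06, edgeR adjusted p = 0.986). In none of these 4 bins was there enough H3K4me3 for a test.

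Among bins with lower H3K4me1, the smallest p belonged to chromosome 1 (157200001 to 157250000). H3K4me1 there was 86.6, 89.7 and 63.4 CPM in control and 44.5, 38.2 and 27.7 CPM in knockdown libraries (log2 fold change -1.12, SE 0.21, 95% interval -1.56 to -0.68, edgeR adjusted p = 0.115). Each of the 5 regions tested there was lower at an unadjusted p under 0.05. The deepest of the 5 lower bins lay on chromosome 18 (13250001 to 13300000), with 208, 201.4 and 180 against 135, 128 and 92.6 CPM (log2 fold change -0.73, SE 0.16, edgeR adjusted p = 0.173). All 12 of its regions were tested and all 12 were lower, and none was promoter-like or acetylated distal. H3K27ac in that bin was 71.3 ± 19.9 and 36.5 ± 7.32 CPM (log2 fold change -0.97, adjusted p = 0.122), and H3K9me3 was 7.02 ± 0.89 and 20.3 ± 4.80 CPM (log2 fold change 1.52, adjusted p = 0.126), neither past the threshold in edgeR. On chromosome 6 the bin at 33800001 to 33850000 had 101, 82.2 and 69.0 against 36.1, 45.3 and 49.0 CPM (log2 fold change -0.95), and that at 39150001 to 39200000 had 144, 159 and 90.2 against 58.0, 85.6 and 61.4 CPM (log2 fold change -0.94; adjusted p = 0.173 for both, edgeR). In the second of these, 2 of the 10 regions tested were higher. The last, on chromosome 12 (11150001 to 11200000), is a single region with 25.6, 26.2 and 12.9 against 9.33, 4.95 and 5.02 CPM (log2 fold change -1.75, edgeR adjusted p = 0.173). The naming rule took these 10 bins by smallest p from all 31889 tested. Their groups did not overlap, which held for 5669 of the bins tested (17.8%).

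**Figure D3:**
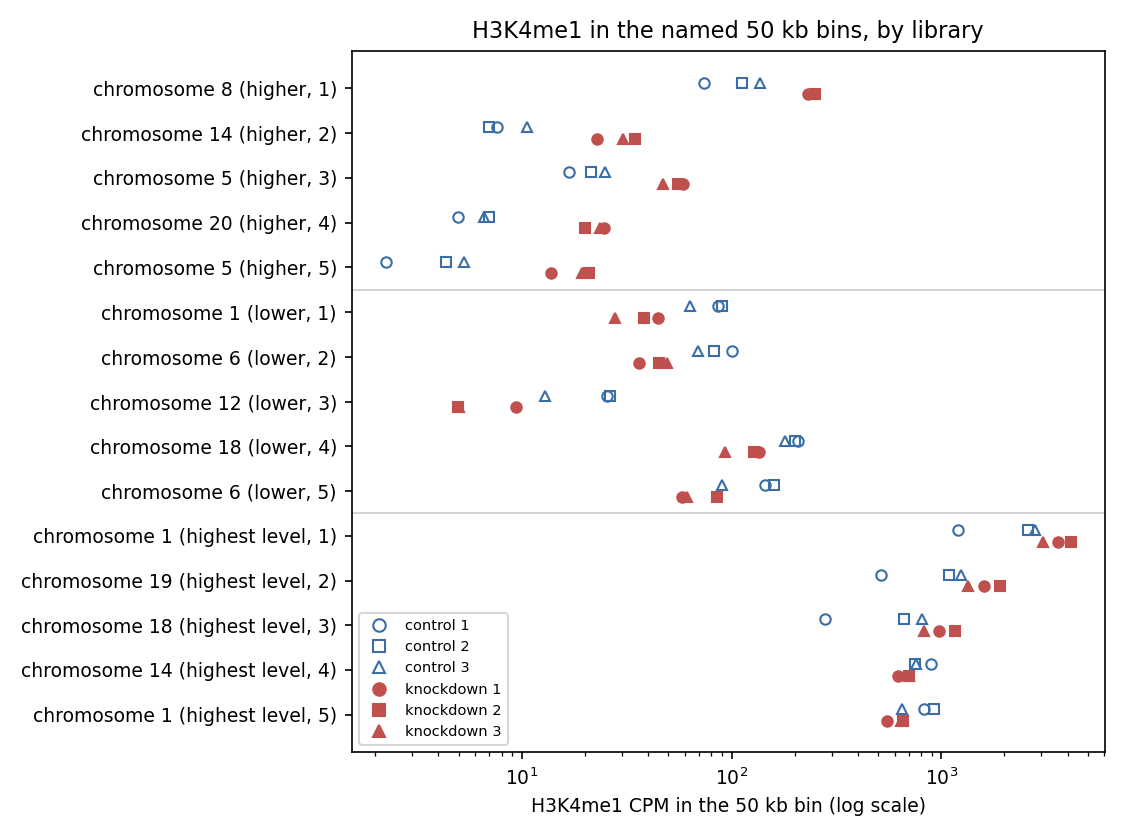
H3K4me1 in CPM (x, log scale) in each of the 6 libraries for the 5 named 50 kb bins higher, the 5 lower and the 5 with the highest mean level (y, by chromosome, in the order of the naming rule). Open blue symbols are control libraries and filled red symbols knockdown libraries, with 1 shape per replicate number. In the top panel knockdown libraries lie to the right of all controls, in the middle panel to the left, and control 1 is the lowest in the first 3 of the high-level bins.

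The bins with the most H3K4me1 were of another kind. On chromosome 1 the bin at 121450001 to 121500000 had 1200, 2580 and 2799 CPM in control and 3584, 4132 and 3068 CPM in knockdown libraries (log2 fold change 0.71, 95% interval 0.12 to 1.30, edgeR adjusted p = 0.316). The bins on chromosome 19 (27700001 to 27750000) and chromosome 18 (100001 to 150000) had the same pattern at lower levels, with log2 fold changes of 0.76 and 0.76 and adjusted p of 0.306 and 0.357 (edgeR). Control 1 was the lowest library in each. In all 3, one region held at least 99.96% of the H3K4me1 counts, and it was also among the densest in H3K9me3: the chromosome 1 bin had 47015 ± 6673 H3K9me3 CPM in control and 49719 ± 2423 in knockdown libraries. The chromosome 1 and chromosome 19 bins lie beside the centromeres, where repeats are common, and the sources used here do not give how reads with several matches were treated. The next bins by level were ordinary in H3K9me3 and lower in knockdown cells. The bin on chromosome 14 (100000001 to 100050000) had 895, 753 and 758 against 620, 700 and 699 CPM (log2 fold change -0.25, edgeR adjusted p = 0.361), and the one on chromosome 1 (27850001 to 27900000) had 830, 919 and 649 against 551, 656 and 641 CPM, where control 3 lay among the knockdown libraries (log2 fold change -0.38, edgeR adjusted p = 0.267). H3K4me3 went the other way in this chromosome 1 bin, with 87.6 ± 5.52 CPM in control and 112 ± 1.04 CPM in knockdown libraries (log2 fold change 0.36, edgeR adjusted p = 0.0255).

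The comparison was then set by the other marks, each tested on its own 6 libraries. H3K4me3 changed in 150 of 26773 regions tested (0.56%), of which 100 were higher and 50 lower (edgeR, adjusted p under 0.05). In the regions themselves the H3K4me1 differences were small. Summed over the 50 lower regions it was 1326, 1447 and 1292 CPM in control and 1237, 1255 and 1248 CPM in knockdown libraries, a log2 ratio of -0.12. The groups did not overlap there either (exact permutation test, two-sided, p = 0.1). Larger differences lay beside them. In the 108 other regions within 10 kb, the summed H3K4me1 was 1438, 1249 and 1352 CPM in control and 1043, 1036 and 1106 CPM in knockdown libraries, with no overlap between the groups and a log2 ratio of -0.34 (exact permutation test, two-sided, p = 0.1, the smallest that 3 against 3 allows). Locus by locus, 39 of the 50 lower regions had at least 60 H3K4me1 counts in their flanks over the 6 libraries. In 35 of the 39 (89.7%) the flank was lower in knockdown cells, against 51.3% of the flanks of 19042 H3K4me3 regions that were not called. In 13 of the 39 (33.3%) the groups did not overlap and were lower, against 7.29% over all flanks. With any one H3K4me1 library left out, 31 to 34 of the 39 were lower.

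Flanks of regions that gained H3K4me3 leaned the other way and by less. In the 221 other regions within 10 kb of the 100 higher ones, H3K4me1 summed to 2344, 2244 and 2156 CPM in control and 2406, 2480 and 2490 CPM in knockdown libraries, a log2 ratio of 0.13 with no overlap (exact permutation test, two-sided, p = 0.1). The regions themselves gave 2054, 2006 and 2092 against 2037, 2080 and 2112 CPM, which overlapped. Of 65 with at least 60 flank counts, 49 (75.4%) had a higher flank, against 48.7% of flanks not called. The groups did not overlap and were higher in 15 (23.1%), against 8.75% over all flanks. Without control 3 the number with a higher flank was 41 of 65, and without control 1 it was 50.

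The difference beside lost H3K4me3 reached beyond the nearest regions. By distance, the log2 ratio of summed H3K4me1 was -0.41 within 2 kb, -0.38 at 2 to 5 kb, -0.26 at 5 to 10 kb, -0.30 at 10 to 20 kb and -0.20 at 20 to 50 kb, and the groups did not overlap at any of these distances. Beside gained H3K4me3 it was 0.01 within 2 kb, where the groups overlapped, 0.22 at 2 to 5 kb, 0.19 at 5 to 10 kb and 0.08 at 10 to 20 kb, and -0.01 at 20 to 50 kb, where they overlapped again. The other marks differed beside these regions too, though not always where H3K4me1 did. Within 2 kb of lost H3K4me3, H3K27ac in these flanking regions was 287 ± 30.3 CPM in the control and 207 ± 14.9 CPM in the knockdown group, and H3K4me3 was 67.7 ± 13.7 and 34.6 ± 3.38 CPM. Within 2 kb of gained H3K4me3, H3K27ac was 864 ± 166 and 1268 ± 75.1 CPM without overlap, while H3K4me1 overlapped there. At 5 to 10 kb from gained H3K4me3, where the H3K4me1 groups did not overlap, those of H3K27ac and H3K4me3 did. Whether libraries of different marks with the same replicate number came from the same cells is not given in the labels, and the part of shared cells in these results was not tested.

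**Figure D4:**
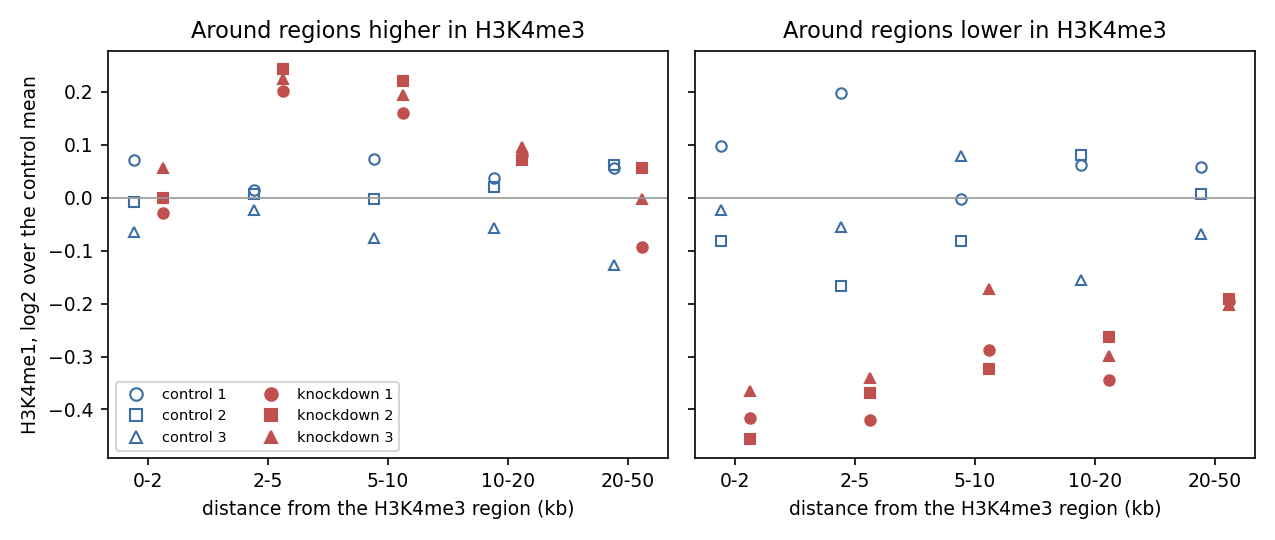
H3K4me1 summed over regions at 5 distances (x, kb) from regions higher (left) or lower (right) in H3K4me3, per library, as log2 over the control mean (y). Open blue symbols are control and filled red symbols knockdown libraries. On the right, all knockdown symbols lie below all control symbols at every distance, with ratios of the means from -0.41 to -0.20, and on the left they lie above from 2 to 20 kb.

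Deep examples show the range. Within 10 kb of a region on chromosome 2 (127413108 to 127416257) that lost H3K4me3 (log2 fold change -0.68, edgeR adjusted p = 0.0287), flanking H3K4me1 was 80.5, 53.2 and 83.1 CPM in control and 46.7, 38.2 and 37.1 CPM in knockdown libraries, without overlap. The deepest flank of a region that lost H3K4me3, on another part of chromosome 2 (54784590 to 54788847), had 197, 165 and 230 against 179, 183 and 193 CPM, and the groups overlapped. On chromosome 12 (122229546 to 122233775), where H3K4me3 rose (log2 fold change 0.98, edgeR adjusted p = 0.000429), the flank had 107, 97.9 and 88.6 against 107, 118 and 121 CPM. A region on chromosome X (39952153 to 39959055) went against the others: H3K4me3 rose (log2 fold change 0.36, edgeR adjusted p = 0.0317), while its flank had 200, 188 and 177 CPM of H3K4me1 in control and 147, 156 and 151 CPM in knockdown libraries. These 4 were picked from the 5 deepest flanks in each direction after their values were seen.

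In bins with more H3K27ac, H3K4me1 values mostly lay on the same side. H3K27ac rose in 28 of 28454 bins of 50 kb tested and fell in 3 (0.109% in all; edgeR, adjusted p under 0.05). H3K4me1 was higher in 27 of the 28, 13 of them at an unadjusted p under 0.05 (5.92% over all bins) and with a median log2 fold change of 0.50, while over all bins 15464 of 31889 were higher and the median was -0.02. In the 3 bins with less H3K27ac, H3K4me1 was higher in 2 and lower in 1, none at an unadjusted p under 0.05. H3K4me3 fell in 46 bins of 18097 tested and rose in 90 (0.752% in all). H3K4me1 was lower in 39 of the 46, 15 of them at an unadjusted p under 0.05 (7.17% over all bins), with a median log2 fold change of -0.27. In the 90 bins with more H3K4me3 it was higher in 48 and lower in 42, with a median of 0.03. H3K9me3 was called in 3 of 24162 bins (0.0124%), of which 2 were higher, and both had lower H3K4me1 at an unadjusted p above 0.05. Leaving out one H3K4me1 library at a time, chosen as an alternative after seeing the data, left 25 to 28 of the 28 bins higher and 36 to 40 of the 46 lower. The 13 bins at an unadjusted p under 0.05 became 7 without control 1, 7 without knockdown 3 and 17 without control 3. Over all bins and both directions, 4176 of 31889 at this limit became 2683 of 32753, 2374 of 32545 and 7759 of 32835. The 15 bins lower in both marks became 10 without knockdown 1 and 19 without control 3.

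At the level of regions, H3K27ac was called in 7 of 61484 (0.0114%) and H3K9me3 in 3 of 30565 (0.00982%) by edgeR. At the 4 regions called in H3K4me3 and in one of these marks, the size of the H3K4me1 difference varied. The region with the most H3K4me3 lost lay on chromosome 1 (23686304 to 23698054), with log2 fold changes of -3.96 for H3K4me3 and -2.06 for H3K27ac. It had 36.3, 26.6 and 37.4 CPM of H3K4me1 in control and 6.22, 11.5 and 19.9 CPM in knockdown libraries (log2 fold change -1.40, 95% interval -2.02 to -0.77, edgeR adjusted p = 0.105). The rest of its 50 kb bin held 24.6, 22.8 and 31.3 against 16.6, 16.1 and 20.3 CPM over library totals, lower in each knockdown library as well. That rest includes the neighbouring region at 23699122 to 23700480, so the 2 are not separate observations. In this neighbour H3K4me1 was 12.8, 8.79 and 12.5 CPM in control and 1.56, 3.66 and 1.66 CPM in knockdown libraries over TMM-scaled sizes. Its counts were 57, 36 and 48 against 6, 15 and 8 (log2 fold change -2.30, SE 0.48, edgeR adjusted p = 0.0953), and H3K9me3 rose there (adjusted p = 0.0047, edgeR). The bin's other regions were not summed without the neighbour. On chromosome 3 (139257262 to 139260770) H3K9me3 also rose (log2 fold change 3.71) and H3K4me3 fell (log2 fold change -1.39). H3K4me1 there was 24.1, 20.03 and 14.5 against 5.96, 6.35 and 9.13 CPM (log2 fold change -1.44, edgeR adjusted p = 0.13). At the other pair the 95% interval of the H3K4me1 log2 fold change included 0. On chromosome 4 (151499859 to 151506019) H3K4me3 and H3K27ac fell with log2 fold changes of -0.98 and -2.39, while H3K4me1 was 52.5, 40.8 and 48.8 CPM in control and 56.8, 56.9 and 54.2 CPM in knockdown libraries, with a 95% interval of the log2 fold change from -0.15 to 0.63. On chromosome 6 (127437365 to 127444343) H3K4me3 and H3K27ac rose with log2 fold changes of 1.23 and 2.41, while H3K4me1 was 28.6, 32.003 and 33.3 against 36.0, 34.7 and 34.0 CPM, with an interval from -0.29 to 0.61. The chromosome 4 values thus lay on the opposite side from the other marks, and those of chromosome 6 on the same side. The groups did not overlap at either locus, as in 15.6% of all regions tested. At both loci a 2-fold change of H3K4me1 lay outside the interval.

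Spread over the genome, H3K4me1 was divided among classes of region set only on the other 3 marks. Promoter-like regions held 42.2% ± 1.03 (SD, n = 3) of the H3K4me1 counts in the control group and 42.4% ± 0.42 in the knockdown group, and acetylated distal regions 18.3% ± 1.08 and 18.6% ± 0.25. These shares overlapped between the groups, and their direction changed with how classes were set or libraries scaled. With the densest 10% as the limit, the promoter-like share was 1.17 percentage points higher in knockdown libraries, without overlap. The promoter-like class also holds the regions rich in H3K9me3 of the highest bins described above, which are also among the 20% densest in H3K4me3. Per kb, acetylated distal regions were the densest, at 10.2 ± 0.60 CPM per kb in control and 10.4 ± 0.14 in knockdown libraries. Regions outside the densest 20% of each of the 3 marks, which can still carry them at lower levels, held 38.5%, 38.4% and 37.9% in control and 37.5%, 36.9% and 36.9% in knockdown libraries, which did not overlap, but the difference of -1.17 percentage points turned to 0.21 with classes set on control libraries alone and was -2.25 with TMM-scaled library sizes. H3K9me3-marked regions (the 20% densest in H3K9me3 without the other 2 marks) held 0.89%, 1.34% and 1.57% in control and 1.90%, 1.97% and 1.74% in knockdown libraries. Every knockdown library was above every control there, and control 1 was the lowest by far (exact permutation test, two-sided, p = 0.1, adjusted over the 4 classes 0.2).

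The 200 regions densest in H3K9me3, ranked on the H3K9me3 libraries alone, showed the same pattern. This is not separate from the highest bins described above, since the regions that dominate the first 3 of those bins are among the 200. Their share of the H3K4me1 counts was 0.51%, 1.02% and 1.24% in control and 1.67%, 1.79% and 1.39% in knockdown libraries. The groups did not overlap, and the ratio of the means was 1.75 (exact permutation test, two-sided, p = 0.1). Without control 1 the ratio was 1.43, and without control 3 it was 2.11. Of the 200 regions, 130 had enough counts for a test and 123 of these were higher, against 47.8% over all regions tested. At an unadjusted p under 0.05, 53 were higher (4.91% over all regions tested), and none passed (lowest edgeR adjusted p = 0.0953). In the same 200 regions the shares of the other marks overlapped between the groups: H3K4me3 was 0.12%, 0.18% and 0.28% against 0.27%, 0.32% and 0.23%, and H3K27ac was 1.37%, 2.66% and 2.92% against 2.35%, 3.33% and 2.88%. Control 1 was the lowest library in each of these marks too. The share of H3K9me3 itself was 27.3%, 29.3% and 33.1% in control and 30.3%, 29.9% and 32.3% in knockdown libraries, again overlapping. The part of library quality in the difference was not tested.

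**Figure D5:**
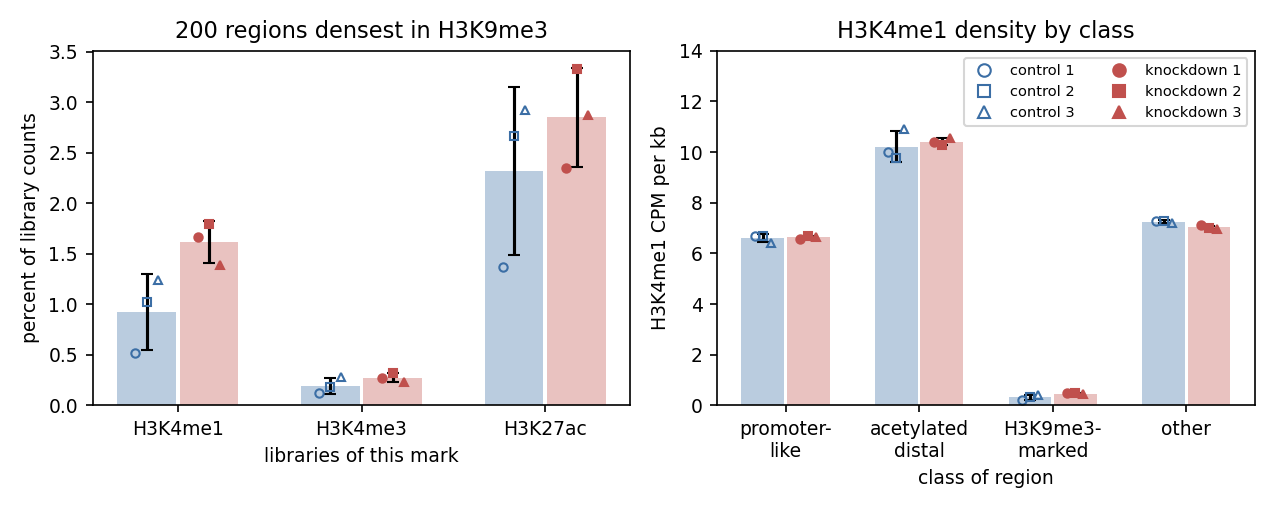
Left, the share of each library's counts (y, percent) in the 200 regions densest in H3K9me3, for the libraries of 3 marks (x). Right, H3K4me1 in CPM per kb by class of region. Bars are means of 3 libraries, error bars are SD, and symbols are single libraries (blue control, red knockdown). The H3K4me1 share is 0.92% in control and 1.62% in knockdown libraries, with control 1 the lowest, and the densities of promoter-like and acetylated distal regions overlap.

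H3K4me1 counts were also spread over more regions in knockdown cells. The number of regions with at least 1 count was 114329, 117929 and 118154 in control and 119745, 122221 and 123188 in knockdown libraries. With each library thinned to the depth of the shallowest, 3920283 counts, the expected numbers were 113305, 117141 and 118036 against 119745, 121703 and 121495, still without overlap (exact permutation test, two-sided, p = 0.1). There were 856 regions with 0 counts in all 3 controls and counts in all 3 knockdown libraries, and 207 with the reverse. By class the numbers were 534 and 104 among 29992 H3K9me3-marked regions, 307 and 97 among 76203 in the class outside the densest 20%, 10 and 4 among 16400 acetylated distal and 5 and 2 among promoter-like regions, which are 20% of all. The classes differ in level: per library, 47.4% to 66.8% of H3K9me3-marked regions had no count, against 1.34% to 2.47% of acetylated distal and 0.69% to 1.30% of promoter-like regions, so few regions of the last 2 classes could enter these numbers.

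By distance from the nearest promoter-like region, H3K4me1 differed without overlap in 1 of 5 intervals. Regions outside but under 5 kb away held 9.87%, 9.498% and 9.52% of the counts in control and 8.95%, 9.26% and 9.23% in knockdown libraries (exact permutation test, two-sided, p = 0.1, adjusted over the 5 intervals 0.5). Regions more than 100 kb away held 12.4% ± 0.78 and 13.1% ± 0.46. Among chromosomes without Y, the groups did not overlap in 6 of 23 (26.1%), 3 higher and 3 lower. The largest of these differences was on chromosome 19, which held 3.398%, 3.303% and 3.17% of the counts in control and 3.52%, 3.58% and 3.48% in knockdown libraries, a log2 ratio of 0.10 (exact permutation test, two-sided, p = 0.1, 0.343 when adjusted over the chromosomes with Y included). Part of this difference came from 1 region rich in H3K9me3 beside the centromere (27731783 to 27740768). That region had 495, 1031 and 1232 CPM of H3K4me1 in control and 1652, 1914 and 1350 CPM in knockdown libraries. Whether the groups overlap on chromosome 19 without it was not tested.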

How the data were processed

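Counts per region were deposited for each of the 24 libraries by the authors, not normalized, over 1 shared list of regions. Per the submitters' processing notes the build was hg19, and the tools listed, with no role given, were deepTools 3.5.4, bedtools 2.30.0 and Bowtie2 2.4.5. Read filters and the making of the regions are not given in these sources. Even numbers made up 51.9% to 53.5% of the H3K4me1 counts above 0, an excess that counting both mates of a pair would give. Titles gave the group, mark and replicate number.

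Regions, and counts summed by region midpoint in bins, were tested on the 6 H3K4me1 libraries with edgeR 4.0.16 (R 4.3.3): filterByExpr, TMM scaling, robust quasi-likelihood fits with group as the only term, and Benjamini-Hochberg adjusted p-values over all windows tested, called under 0.05. DESeq2 1.42.0 and limma-voom (limma 3.58.1) were alternatives. The 95% intervals use the SE (the log2 fold change over the square root of F) and the fit's degrees of freedom. The same test was run on each other mark. Shares were compared by exact permutation over libraries. Class densities use log2(CPM per kb + 0.01). Shares, densities per kb, sums over lists of regions, flanks, distances and the rest of a bin use CPM over library totals. The 60 flank counts are a sum over the 6 libraries. The code was tested on simulated data.

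Named bins and regions are the 5 higher and 5 lower with the smallest p among all tested, since none passed the threshold. For bins, the 5 with the highest mean level were named too. The members and lists were chosen with earlier results of these data known. Positions count from 1. Leaving out single libraries for the flank counts by locus and for the 200 regions densest in H3K9me3 was also chosen after seeing the data. Chi-square per degree of freedom between libraries of one group was 3.06 to 6.77, so none was merged. The planned tests by gene and by cell type markers were not run, since no annotation of this build was used, and no sequence is printed for the same reason.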

Additional observations from a re-analysis of the deposited data

How the results depend on the processing

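Without control 3 or control 2 the calls rose as given above, and leaving out one library gave 0 to 2443 regions and 0 to 2197 bins of 50 kb. From 0 of 85815 regions called, the count went to 10 with library totals, 2 with loess offsets, 88 with DESeq2 and 67 with limma-voom, each of 85815. With no filter it was 208 of 144761. From 0 of 31889 bins it went to 1 each with library totals, loess offsets and limma-voom, each of 31889. It was also 1 with halved counts (of 27847), 10 kb bins (of 60071), 100 kb bins (of 21238) and bins of at least 3 regions (of 20039). The count was 2 of 47767 with 20 kb bins and 10 of 25711 without promoter-like regions. With no filter it was 333 of 43676 and with DESeq2 111 of 23851. It was 0 for bins with RLE size factors, a strict filter, a shift of 25 kb, 200 kb and 1000 kb. With the replicate number as a block, edgeR called 94 of 85815 regions and 89 of 31889 bins, but the labels do not say that the numbers pair libraries, and deviations of same-numbered libraries correlated at -0.12, 0.01 and 0.07.

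In percentage points (knockdown minus control), the acetylated distal share of 0.36 became -0.83 with classes set on control libraries, -0.016 with the top 10% and -0.13 with TMM-scaled sizes (one library left out, -0.061 to 0.965). The promoter-like share of 0.21 became -0.035 with classes (and so distances) set on control libraries, -0.026 without the 100 highest regions, a setting chosen after seeing the data, and -0.96 with TMM-scaled sizes, but 1.17 with the top 10% (-0.39 to 0.52). The share of regions outside the densest 20% of each mark, -1.17, became 0.21 with classes set on control libraries and -2.25 with TMM-scaled sizes, and that at 20 to 100 kb, -0.18, became 0.00295 (-0.297 to 0.047). Leaving out one library, ranges were 0.42 to 0.76 for H3K9me3-marked, -1.39 to -1.04 for regions outside the densest 20%, -0.55 to -0.36 under 5 kb, -0.39 to -0.13 at 5 to 20 kb and 0.30 to 1.07 over 100 kb, 3677 to 5901 more regions with a count, and log2 ratios of -0.39 to -0.29 and 0.10 to 0.16 beside lower and higher H3K4me3. Among named bins, 1 value turned, that on chromosome 14 at 100000001 with loess offsets (log2 fold change 0.0082); 187 kept their direction and side of the threshold and 61 kept their direction and passed it. The bin on chromosome 8 passed in 11 of 17 alternatives. The causes of these shifts were not tested.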
